A study of Mus musculus with 5 samples.

Results

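Solute carriers are membrane proteins that move nutrients, ions, metals and metabolites across the cell surface and the membranes of organelles. Most work by exchange or by coupling to a gradient of sodium or protons, and the sodium pump maintains the sodium gradient at the cell surface. Their names give the family first, so SLC39A proteins bring zinc into the cytosol and SLC30A proteins move it out of the cytosol or into vesicles. In the uterus, carriers of the epithelium help to set the composition of the luminal fluid.

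The carrier genes described here were those whose name on the array was SLC, a number, the letter A and a number, with nothing else, and whose probe had a detection score above 0.95 on at least 2 of the 5 arrays. The array listed 268 such genes on 462 probes, and 174 genes in 38 families met the detection rule, of 15733 detected genes of all kinds. A gene was represented by its brightest detected probe. The members were therefore selected on the detection score and on the signal averaged over all 5 arrays, not on the difference between the groups. Of the 174 genes, 145 were detected on all 5 arrays, 11 on 4, 9 on 3 and 9 on 2. No member was detected only in Dicer cKO pools. The rule was stricter there, as such a gene needed detection in both Dicer cKO pools, against 2 of 3 control pools for a gene detected only in controls. The used probes of Slc12a4, Slc13a5, Slc23a1, Slc27a2 and Slc30a4 were detected only in control pools, so that the filter admitted them through the group where they were higher or as high. At the edge of the rule, the 9 genes detected on 2 arrays had a mean intensity of 58.0 to 65.2, and 8 genes left out with detection on 1 array had 54.9 to 60.1. A further 86 genes were not detected on any array.

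Whole uterine RNA was profiled at 15 days of age, in a mixed hybrid of C57BL/6J and 129S5/Brd. The 3 control pools, numbered 7, 9 and 11, were wild type per the labels. The 2 Dicer cKO pools, numbered 10 and 12, came from mice in which Dicer, the enzyme that cuts microRNA precursors, was deleted by progesterone receptor-Cre. Deletion is thereby limited to cells in which that receptor gene is active. The sources used here do not give the Cre and floxed allele status of the controls. Each sample was a pool of uteri on 1 Illumina bead array, the number of uteri per pool is not stated, so p-values reflect only how far such pools differ among themselves.

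The arrays detected between 21297 and 22414 of 45281 probes. Dicer1, the gene targeted, read 9.15, 9.08 and 9.12 on the log2 scale in the controls (pools 7, 9 and 11) and was lower in both knockouts, at 8.62 in pool 10 and 8.75 in pool 12 (-0.43 ± 0.09 SE, limma adjusted p = 0.0224). The position of its probe against the deleted exons is not given, which limits this check of the labels. Among fixed marker lists, all 6 smooth muscle and all 5 uterine identity genes were measured, and none of 6 renal tubule and gut markers was. Of 6 measured epithelial markers, Krt8 (-0.37 ± 0.09), Krt18 (-0.86 ± 0.09), Krt19 (-0.54 ± 0.10) and Cldn3 (-1.48 ± 0.17) were called lower in Dicer cKO pools. Cdh1 (-0.27 ± 0.11) and Cldn7 (0.35 ± 0.22) were not called. The mean level of these 6 was 9.66 to 10.02 in control pools and 9.25 to 9.29 in Dicer cKO pools. Epcam, a further epithelial marker, did not pass the detection rule. Some markers of other cells were called lower too. Of 3 measured adipocyte markers, Adipoq (-1.42 ± 0.30) and Cfd (-1.38 ± 0.34) were called and Lep (-0.21 ± 0.27) was not. The mean of the list was 8.33 to 9.02 in control pools and 7.26 to 8.004 in Dicer cKO pools, with Plin1, Retn and Fabp4 not detected. Of 6 stromal markers, Vim (-0.82 ± 0.12) and Twist2 (-0.70 ± 0.08) were called. Pdgfra (-0.19), Dcn (-0.19), Lum (-0.32) and Col1a1 (0.09) were not. The means of the stromal list were 11.99 to 12.08 in control pools and 11.58 to 11.78 in Dicer cKO pools. In the uterine list Pgr, the progesterone receptor gene, was called (-0.77 ± 0.14), with means of 9.13 to 9.18 and 8.84 to 9.01. In whole tissue, fewer cells of a type and less RNA per cell cannot be told apart.

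In Dicer cKO uteri a few carriers had much lower signals and others had smaller increases, while the median difference was close to 0. A gene is called here where its p from limma, adjusted by Benjamini and Hochberg's method across the 15733 genes, was under 0.05. Of the 174 carrier genes, 16 were lower and 8 higher in Dicer cKO uteri, and 150 were not called. Together the 24 called genes were 13.8% of the carriers, beside 6.74% of all genes. The called decreases were 9.20% of the carriers and 3.96% of all genes, and the called increases 4.60% and 2.78%. This difference in share was not tested. The median difference of the carriers was 0.00 log2 units and that of all genes 0.01, with a median size of 0.14 for the carriers and 0.13 for all genes. The Dicer cKO pools lay beyond all control pools, on one side, for 37.4% of carriers and for 37.6% of all genes. They lay below all control pools for 36 carriers and above them for 29, where all genes gave 17.6% and 19.9%. Large changes were decreases: 9 carriers were called with at least 1 log2 unit lower, where all genes gave 1.10%, and 0 were called with at least 1 log2 unit higher, where all genes gave 0.413%. Of these decreases, that of Slc27a2 is measured against Dicer cKO pools in which its probe was not detected. Over the 169 carriers whose probe was detected in both groups, 15 were called lower, 8 of them by at least 1 log2 unit, and 8 higher. The largest increase among carriers was 0.82 log2 units.

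**Figure D1:**
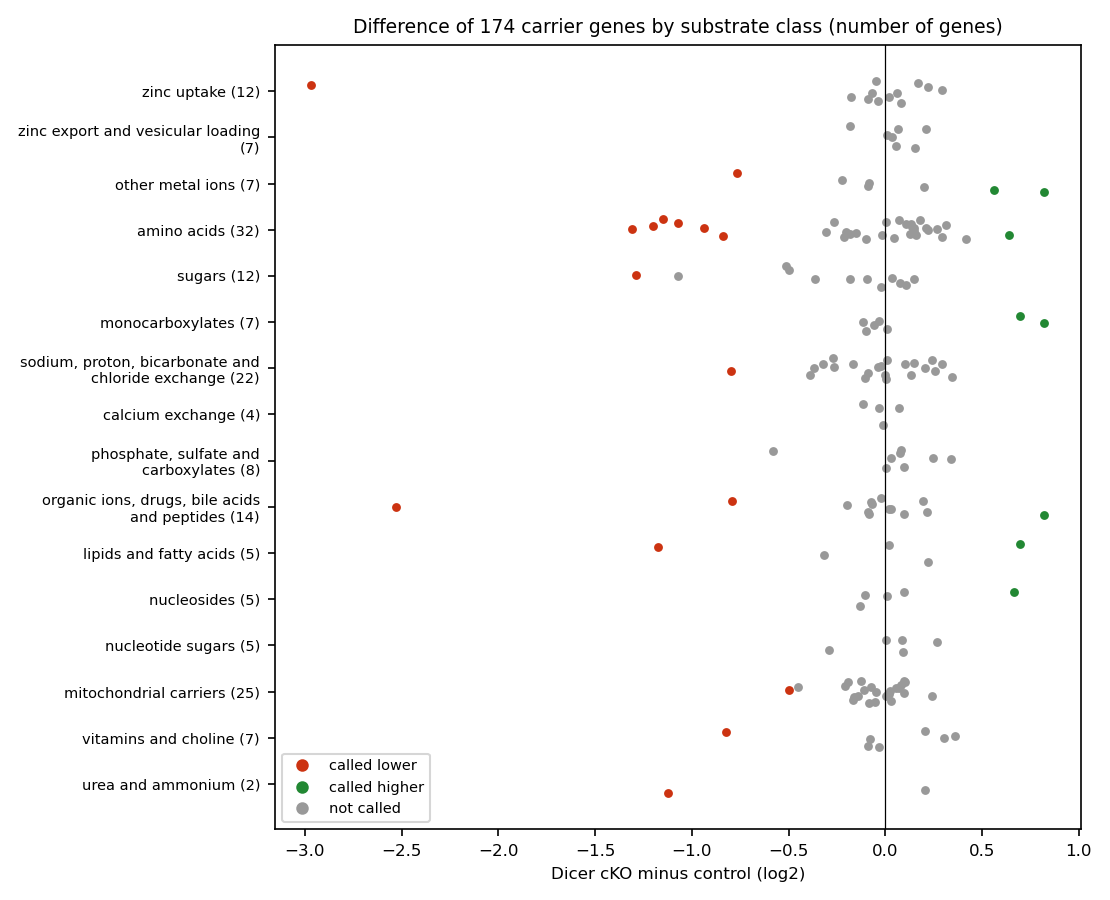
Difference between Dicer cKO and control pools on the log2 scale (horizontal axis) for each of the 174 carrier genes, in rows by the substrate class of their family with the number of genes in brackets; red points were called lower, green points called higher and grey points not called, and the vertical spread within a row has no meaning. Most points lie near 0, and 2 red points, Slc39a4 at -2.97 and Slc15a2 at -2.53, stand far to the left.

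The families held between 1 and 25 members. At least 1 gene was called in 18 of 38 families and none in 20. Decreases occurred in 14 families and increases in 7, and 3 families held both.

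**Figure D2:**
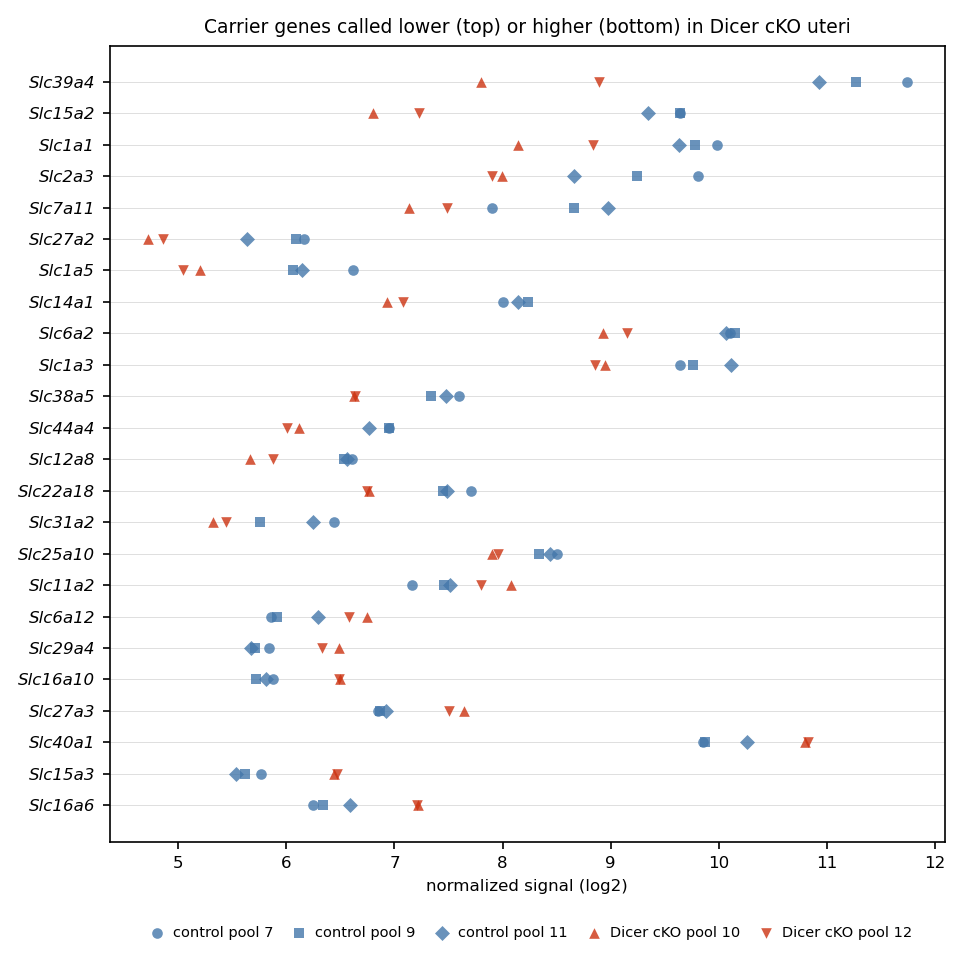
Normalized signal (log2, horizontal axis) of the 24 called carrier genes in every pool, with control pools in blue and Dicer cKO pools in red, ordered from the largest decrease (top) to the largest increase (bottom). The groups do not overlap for any of the 24 genes, and the Slc39a4 values of Dicer cKO pools 10 and 12, at 7.80 and 8.89, are the farthest below their controls.

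Promoters of the called genes were read from RefSeq (GRCm38.p6), which held 15 of the 24 called genes and 129 of the 174 members. The 250 bases before the start site are shown for the called genes with the largest differences among these, 2 lower and 2 higher, so that the sequences of genes that moved in opposite directions can be compared. Capitals mark matches, on either strand, to the metal response element core (TGCACNC or TGCGCNC), an oestrogen receptor core motif (AGGTCA), a progesterone receptor core motif (AGAACA, shared with other steroid receptors) and the TATA box (TATAAA). Slc15a2 was read from chr16:36784963-36785212 on the minus strand, Slc1a1 from chr19:28834885-28835134 on the plus strand, Slc27a3 from chr3:90389939-90390188 on the minus strand and Slc16a10 from chr10:40142255-40142504 on the minus strand.
Slc15a2: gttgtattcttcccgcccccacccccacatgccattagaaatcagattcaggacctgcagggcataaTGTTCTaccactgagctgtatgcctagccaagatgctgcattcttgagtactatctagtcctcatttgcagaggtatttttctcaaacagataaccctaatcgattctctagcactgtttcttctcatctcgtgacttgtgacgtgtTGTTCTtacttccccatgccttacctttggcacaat
Slc1a1: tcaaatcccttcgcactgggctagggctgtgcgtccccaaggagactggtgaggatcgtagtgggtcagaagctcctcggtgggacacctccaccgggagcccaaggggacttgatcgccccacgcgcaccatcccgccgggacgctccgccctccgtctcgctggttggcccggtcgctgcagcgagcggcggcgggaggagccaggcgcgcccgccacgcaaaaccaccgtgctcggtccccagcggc
Slc27a3: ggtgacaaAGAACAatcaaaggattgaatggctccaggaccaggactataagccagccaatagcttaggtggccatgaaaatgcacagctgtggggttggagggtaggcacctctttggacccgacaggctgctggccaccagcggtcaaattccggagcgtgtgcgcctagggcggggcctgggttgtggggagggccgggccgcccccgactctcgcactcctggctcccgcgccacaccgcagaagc
Slc16a10: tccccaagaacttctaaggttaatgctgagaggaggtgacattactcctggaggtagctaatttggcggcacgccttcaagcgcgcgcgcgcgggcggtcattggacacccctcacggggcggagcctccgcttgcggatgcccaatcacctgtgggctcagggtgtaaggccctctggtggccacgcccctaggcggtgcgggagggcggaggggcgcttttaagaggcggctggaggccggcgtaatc

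The upstream sequence of Slc15a2 was 45.2% G and C with 4 CpG dinucleotides and held the reverse complement of AGAACA at 2 places, while that of Slc1a1 was 70.4% G and C with 27 CpG dinucleotides and held no match. Slc27a3 held AGAACA at 1 place and Slc16a10 none of the 4 motifs. A gene with several start sites has several windows. The 13 windows of carriers called lower came from 11 genes and the 8 of carriers called higher from 4 genes. Most of the 8 were closely spaced windows of Slc6a12, which held their only matches to AGGTCA and the metal response element core. AGAACA, on either strand, was found in 4 of 13 windows of carriers called lower, 1 of 8 of carriers called higher, 14 of 158 of carriers not called and 16.1% of 32851 windows of all genes. The metal response element core occurred in 2 of 13, 1 of 8 and 42 of 158 windows and in 21.4% of all windows. For AGGTCA these counts were 2 of 13, 1 of 8 and 19 of 158, with 4607 of the 32851, and for TATAAA 1 of 13, 1 of 8 and 11 of 158, with 12.4% of all windows. The median G and C content was 53.6% in windows of carriers called lower, 59.6% in those called higher, 60.8% in those not called and 52.4% over all genes. These are descriptions of letters in a short window, and a match is not a binding site.

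Of 19 zinc carriers 1 was called, Slc39a4, with a large decrease. That was 8.33% of the 12 SLC39A genes and 0 of the 7 SLC30A genes, beside 6.74% of all genes. Slc39a4 encodes ZIP4, the zinc importer of the apical membrane that intestinal zinc uptake depends on. Its log2 signal was 11.74, 11.27 and 10.93 in control pools 7, 9 and 11, against 7.80 and 8.89 in Dicer cKO pools 10 and 12. The groups were far apart, although the Dicer cKO pools differed from each other by more than the control pools did. The difference was -2.97 ± 0.29 (SE; limma adjusted p = 0.000388), a 7.82-fold lower signal. As deposited, the intensity was 3852.0, 2495.3 and 1831.1 in the control pools and 235.8 and 513.5 in the Dicer cKO pools, where the standard error over beads was 3.17% to 4.38% of the value. A dimmer probe of the same gene differed by -2.44 and was also called. Among all 15733 genes, 7 had a larger decrease. With a robust estimate of the spread the call was lost (limma adjusted p = 0.0533).

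The other 18 zinc carriers were not called. Their differences ran from -0.18 to 0.29 log2 units with a median of 0.04. Every 95% confidence interval lay within 1 log2 unit of 0, between bounds of -0.54 and 0.57. Slc30a4, not detected in Dicer cKO pools, was taken at its measured signal. The probes of Slc30a4, Slc39a5, Slc30a8, Slc39a14 and Slc39a12 were dim, with mean log2 signals from 4.98 to 5.43. The lowest detected signal of the arrays was 4.93 to 5.03, so these probes could not show a decrease of 1 log2 unit. The SLC39A family had 12 members, and the 11 apart from Slc39a4 are importers of the cell surface, the secretory pathway or other organelles. Slc39a6, which encodes a ZIP protein of the plasma membrane, came closest to a call. It read 9.81, 9.77 and 9.84 in control pools 7, 9 and 11, against 10.07 and 10.12 in Dicer cKO pools 10 and 12, so that the groups did not overlap (0.29 ± 0.08, limma adjusted p = 0.0586). Slc39a7, which releases zinc from the endoplasmic reticulum, differed by 0.08 ± 0.11, and Slc39a13, a carrier of the secretory pathway linked to connective tissue, by -0.07 ± 0.10. Slc39a8 and Slc39a14, importers that also carry manganese, differed by -0.04 ± 0.14 and -0.18 ± 0.16. Values for Slc39a3, Slc39a9, Slc39a10, Slc39a11 and Slc39a12 were -0.09, 0.06, 0.17, 0.02 and 0.22. Slc39a5, at -0.05 ± 0.21, was dim, and its Dicer cKO pools read 5.50 and 4.72, above and below all control pools.

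Of the 7 SLC30A members, which lower cytosolic zinc, none was called. Slc30a1, the exporter of the plasma membrane, had a deposited intensity of 125.1, 132.4 and 117.2 in the control pools, against 116.0 and 131.3 in the Dicer cKO pools, with overlapping groups (log2 difference 0.06 ± 0.13). Slc30a5, Slc30a6 and Slc30a7, which load zinc into the early secretory pathway, differed by 0.06 ± 0.08, 0.03 ± 0.10 and 0.21 ± 0.11. Slc30a8 and Slc30a9 differed by 0.15 and 0.01. Slc30a4 was detected in 2 control pools and no Dicer cKO pool, with overlapping groups, and no direction is given for it. Of 5 measured genes that bind or respond to zinc outside the carriers, none was called. The metallothionein genes Mt1 and Mt2, whose proteins bind zinc, differed by -0.04 ± 0.15 and -0.35 ± 0.17. Mt3, another metallothionein gene, was detected in 2 of 3 control pools and in no Dicer cKO pool, without a call (limma adjusted p = 0.0548). No fold is given for it, since a control pool was not detected either. Mtf1, the zinc-sensing transcription factor, differed by 0.34 ± 0.17 and the zinc finger gene Gzf1 by -0.07 ± 0.10.

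**Figure D3:**
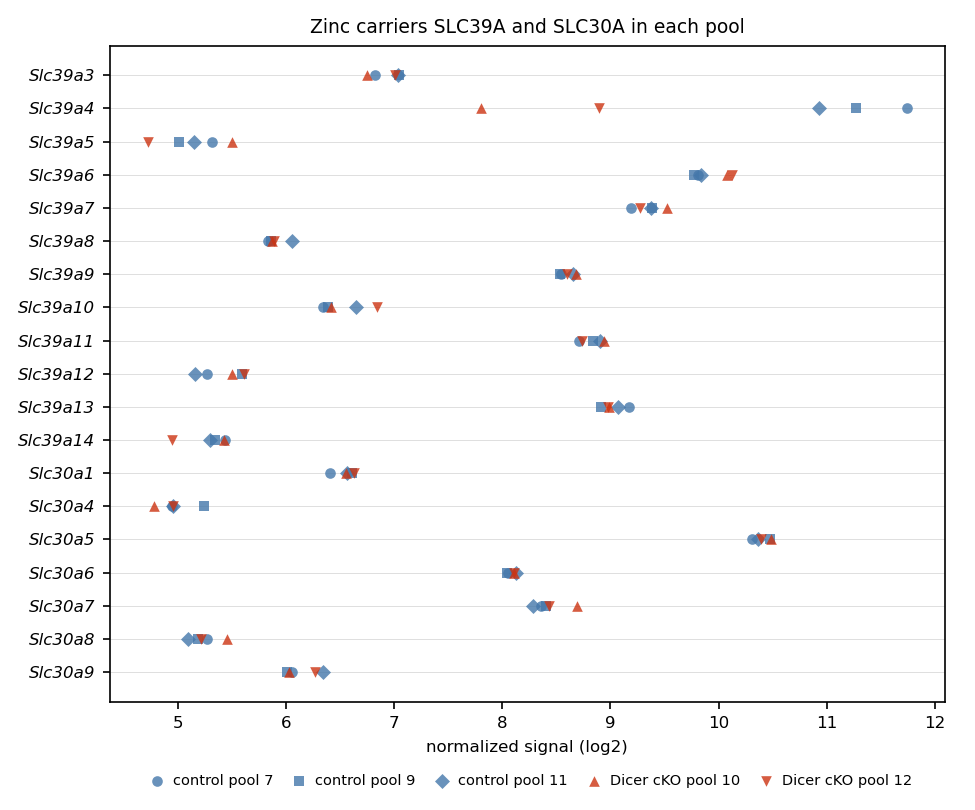
Normalized signal (log2, horizontal axis) of the 19 zinc carrier genes in every pool, SLC39A above SLC30A, with control pools in blue and Dicer cKO pools in red. Slc39a4 is separated by a wide gap, and the Dicer cKO pools of the other 18 genes lie among or close to their controls.

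Carriers of iron and copper moved in both directions. Of 7 carriers of metals other than zinc, 2 rose, 1 fell and 4 were not called. Slc40a1 encodes ferroportin, the iron exporter. It read 9.86, 9.87 and 10.26 in control pools 7, 9 and 11, against 10.80 and 10.83 in Dicer cKO pools 10 and 12, higher in both than in any control pool (0.82 ± 0.12, limma adjusted p = 0.00358). Slc11a2, the divalent metal importer DMT1, rose by 0.56 ± 0.14 (limma adjusted p = 0.0467), but its dimmer probes, at 0.21 and 0.42, were not called. Slc31a2, a copper carrier of intracellular membranes, fell by 0.77 ± 0.20 (limma adjusted p = 0.0467). The calls of Slc11a2 and Slc31a2 were each lost in 9 of 13 alternative settings. For Slc11a2 these included leaving out control pool 7 (0.128), control pool 9 (0.0861), Dicer cKO pool 10 (0.356) or Dicer cKO pool 12 (0.0520), given as limma adjusted p. For Slc31a2 they included control pool 7 (0.136), control pool 11 (0.104), Dicer cKO pool 10 (0.299) and Dicer cKO pool 12 (0.105). Slc31a1, the high-affinity copper importer, differed by -0.09 ± 0.10, and Slc11a1, the metal carrier of macrophage phagosomes, by 0.20 ± 0.09. Of 6 macrophage markers, Cd68, Lyz2 and Mpeg1 were called higher and Cd14 lower, and the mean level of the list was 7.79 to 7.88 in control pools and 7.80 to 8.20 in Dicer cKO pools. The part of these cells in the iron carrier differences was not tested.

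Peptide carriers of the SLC15A family showed the second largest decrease and an increase. Slc15a2 encodes PEPT2, which takes up dipeptides and tripeptides together with protons. It read 9.65, 9.64 and 9.35 in control pools 7, 9 and 11, against 6.80 and 7.23 in Dicer cKO pools 10 and 12, with the groups well apart. The difference was -2.53 ± 0.15 (SE; limma adjusted p = 1.47e-05), a 5.77-fold lower signal, and 12 of all 15733 genes had a larger decrease. Its 3 detected probes differed by -1.82 to -2.53 and all were called. Slc15a3, a peptide and histidine carrier of endosomes and lysosomes, read 5.76, 5.62 and 5.53 in control pools and 6.44 and 6.47 in Dicer cKO pools, a rise of 0.82 ± 0.13 (limma adjusted p = 0.00605; 0.0608 without Dicer cKO pool 10). Slc15a4, the third measured member and also a lysosomal carrier, differed by -0.07 ± 0.11. The macrophage values given for iron carriers stand beside Slc15a3 too, and their part was not tested.

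Classes were set by family number, and the families classed under amino acids were the largest class. They include Slc6a2, a noradrenaline transporter, and Slc6a12, a carrier of betaine and GABA, but not Slc16a10, which carries aromatic amino acids. In this class 6 genes were called lower and 1 higher of 32. That was 21.9%, beside 6.74% of all genes, and some smaller classes had higher shares, such as 42.9% of the 7 other metal carriers. In the SLC1A family, which takes up glutamate and neutral amino acids, 3 of 6 members fell. Slc1a1, the glutamate and cysteine carrier EAAT3, read 9.98, 9.78 and 9.63 in control pools 7, 9 and 11, against 8.14 and 8.84 in Dicer cKO pools 10 and 12. Pool 10 was the lowest, and both Dicer cKO pools lay below all controls (-1.31 ± 0.18, limma adjusted p = 0.0025, 2.48-fold lower). Slc1a3, the glutamate carrier GLAST, read 9.65, 9.77 and 10.12 in the control pools and 8.95 and 8.86 in the Dicer cKO pools (-0.94 ± 0.13, limma adjusted p = 0.00269). Slc1a5, the carrier of glutamine and other neutral amino acids ASCT2, read 6.61, 6.06 and 6.15 in the control pools and 5.20 and 5.04 in the Dicer cKO pools (-1.15 ± 0.18, limma adjusted p = 0.0046), and its 3 detected probes were all called.

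Slc7a11 encodes xCT, which exchanges extracellular cystine for glutamate. It read 7.90, 8.66 and 8.98 in control pools 7, 9 and 11, against 7.14 and 7.49 in Dicer cKO pools 10 and 12, with control pool 7 nearest to the Dicer cKO pools (-1.20 ± 0.26, limma adjusted p = 0.0234). A dimmer detected probe differed by -0.02 and was not called. The call was lost without control pool 9 (limma adjusted p = 0.0607), Dicer cKO pool 10 (0.242) or Dicer cKO pool 12 (0.0523), with the mean of the detected probes, without the intensity trend and with a robust spread. Slc3a2, whose protein is the heavy chain that partners xCT and related carriers, differed by 0.13 ± 0.13, from a dim probe. Slc7a5, the large neutral amino acid carrier that uses the same partner, read 10.27, 10.47 and 10.54 in control pools and 10.78 and 10.70 in Dicer cKO pools, and was not called (0.31 ± 0.09, limma adjusted p = 0.0842). Slc38a5, a glutamine carrier, fell by 0.84 ± 0.13 (limma adjusted p = 0.00383), and Slc38a2, a neutral amino acid carrier, differed by 0.29 ± 0.14.

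The SLC6A family couples uptake to sodium and chloride, and of 10 members 1 fell and 1 rose. Slc6a2, the noradrenaline transporter of sympathetic neurons, read 10.11, 10.15 and 10.07 in control pools 7, 9 and 11, against 8.93 and 9.15 in Dicer cKO pools 10 and 12. The control pools were within 0.1 log2 units of each other and the Dicer cKO pools about 1 unit lower (-1.07 ± 0.09, limma adjusted p = 0.00017). Dimmer probes of Slc6a2 differed by -0.44 and -0.47 and were not called. Of 7 neuronal and glial markers 2 were measured and neither was called. The neuronal marker Syt1 read 6.86, 6.30 and 6.55 in control pools and 5.99 and 6.14 in Dicer cKO pools, lower in both than in any control pool (-0.51 ± 0.17, limma adjusted p = 0.123), and the glial marker Sox10 differed by 0.10 ± 0.15. The part of nerve cells in the Slc6a2 difference was not tested. Slc6a12, a carrier of betaine and GABA, rose by 0.64 ± 0.16 (limma adjusted p = 0.0458), and the call was lost in 7 of 13 settings, among them without control pool 7 (0.139), control pool 9 (0.131), Dicer cKO pool 10 (0.314) or Dicer cKO pool 12 (0.0816). Slc6a13, its neighbour on the chromosome and a GABA carrier, differed by 0.21 ± 0.20. Slc6a6, the taurine carrier, read 12.04, 11.79 and 11.73 in control pools and 11.53 and 11.65 in Dicer cKO pools and was not called (-0.27 ± 0.10, limma adjusted p = 0.154).

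Among 12 carriers of the families classed under sugars, 1 fell. Slc2a3, the high-affinity glucose carrier GLUT3, had a deposited intensity of 1031.1, 644.1 and 405.7 in control pools 7, 9 and 11, against 267.1 and 271.7 in Dicer cKO pools 10 and 12. The control pools were spread widely, from 9.81 to 8.66 after normalization, without reaching the Dicer cKO pools, and the log2 difference was -1.29 ± 0.25 (limma adjusted p = 0.0147). The limma adjusted p rose past the threshold when Dicer cKO pool 10 (0.118) or pool 12 (0.0744) was left out and with a robust spread (0.118). Slc2a1, the widespread glucose carrier GLUT1, read 9.07, 9.05 and 9.10 in control pools and 9.01 and 9.10 in Dicer cKO pools, with a difference of -0.02 ± 0.09 and a 95% confidence interval from -0.22 to 0.18. Slc2a4, the insulin-responsive carrier GLUT4, differed by 0.08 ± 0.12. Slc5a11, a sodium-coupled inositol carrier, read 6.83, 6.00 and 5.59 in control pools and 4.57 and 5.57 in Dicer cKO pools. Its difference of -1.07 ± 0.36 was not called (limma adjusted p = 0.118), and its values had a wide spread in both groups. Slc2a13, a proton-coupled inositol carrier, differed by -0.51 ± 0.15 and Slc2a6, a glucose carrier family member of lysosomes, by -0.50 ± 0.16, and neither was called.

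Fatty acid, urea, choline and organic ion carriers each held a gene that fell. Slc27a2, an acyl-CoA synthetase and fatty acid transport protein, read 6.17, 6.09 and 5.64 in control pools 7, 9 and 11, against 4.72 and 4.86 in Dicer cKO pools 10 and 12, where its brightest probe was not detected. For that probe, not above background there, only a bound can be given, and its signal was at least 1.94-fold lower (limma adjusted p = 0.00384). The call was lost without Dicer cKO pool 10. A dimmer probe of the gene was detected on 4 of the 5 arrays, so also in a Dicer cKO pool. It differed by -0.40 and was not called, so the bound holds for the brightest probe and not for the gene. Slc27a3, an acyl-CoA synthetase of the same family, went the other way. It read 6.84, 6.86 and 6.92 in control pools and 7.64 and 7.50 in Dicer cKO pools (0.70 ± 0.12, limma adjusted p = 0.00688; 0.0840 without Dicer cKO pool 10). Slc14a1, the urea carrier UT-B, read 8.01, 8.24 and 8.14 in control pools and 6.93 and 7.08 in Dicer cKO pools (-1.13 ± 0.12, limma adjusted p = 0.000605), and its 3 detected probes were all called. Slc14a2, the other urea carrier, was dim and differed by 0.20 ± 0.15.

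Slc44a4, of the choline carrier-like family, fell by 0.83 ± 0.13 (limma adjusted p = 0.00504), from 6.95, 6.95 and 6.76 in control pools to 6.12 and 6.00 in Dicer cKO pools. Slc22a18, an imprinted gene of the organic ion carriers, fell by 0.79 ± 0.13 (limma adjusted p = 0.00504), from 7.71, 7.45 and 7.48 to 6.77 and 6.74. Its neighbours Cdkn1c and Phlda2, imprinted genes of the same cluster, differed by 0.36 and 0.42 and were not called. Slc38a4, another imprinted carrier gene, differed by 0.18 ± 0.16. The epithelial marker values given above, 4 of 6 called lower, stand beside the decreases of the 16 carriers called lower. So do the adipocyte markers, 2 of 3 called lower, and the stromal markers, 2 of 6 called lower. The part of none of these cells was tested.

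In the families classed under monocarboxylates 2 of 7 genes were called, and in those classed under nucleosides 1 of 5. These calls were increases, beside 2.78% of all genes called higher, and are too few to give a direction for a class. Slc16a6, the monocarboxylate carrier family member MCT7, read 6.25, 6.34 and 6.58 in control pools 7, 9 and 11, against 7.22 and 7.21 in Dicer cKO pools 10 and 12. It rose by 0.82 ± 0.14 (limma adjusted p = 0.00684; 0.0744 without Dicer cKO pool 10), and its 3 detected probes were all called. Slc16a10, which carries aromatic amino acids and thyroid hormone, rose by 0.69 ± 0.13 (limma adjusted p = 0.0114; 0.0992 without Dicer cKO pool 10). The other 5 of 7 SLC16A genes were not called. Slc29a4, a carrier of monoamines and adenosine at the plasma membrane, rose by 0.67 ± 0.13 (limma adjusted p = 0.0168), from 5.84, 5.71 and 5.67 to 6.49 and 6.33. That call was lost without control pool 9 (limma adjusted p = 0.0581) or Dicer cKO pool 10 (0.167). The other 4 nucleoside carrier genes were not called. Emb, which encodes embigin, a partner that brings monocarboxylate carriers to the cell surface, fell from 10.62, 10.46 and 10.39 to 9.08 and 9.15 (-1.38 ± 0.09, limma adjusted p = 3.75e-05), while the probe of Bsg, which encodes the related partner basigin, was detected in 2 control pools and no Dicer cKO pool and allows no fold.

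In the mitochondrial carriers and the carriers that exchange sodium, protons, bicarbonate or chloride, 1 of 25 and 1 of 22 genes were called, near the 6.74% of all genes. The called mitochondrial carrier was Slc25a10, which exchanges dicarboxylates for phosphate. It fell by 0.50 ± 0.10 (limma adjusted p = 0.0196), and this call did not hold without control pool 7 (0.0704), control pool 11 (0.0517), Dicer cKO pool 10 (0.139) or Dicer cKO pool 12 (0.0507). Slc25a5, the adenine nucleotide exchanger, and Slc25a3, the mitochondrial phosphate carrier, differed by 0.10 ± 0.08 and 0.01 ± 0.08, and the class ran from -0.50 to 0.24. The called ion exchange gene was Slc12a8, a distant member of the cation and chloride cotransporters. It read 6.60, 6.53 and 6.56 in control pools 7, 9 and 11, against 5.67 and 5.87 in Dicer cKO pools 10 and 12 (-0.80 ± 0.13, limma adjusted p = 0.00614; 0.0768 without Dicer cKO pool 10). Slc12a2, the sodium, potassium and chloride cotransporter of secretory epithelia, read 11.43, 11.26 and 11.24 in control pools and 10.73 and 11.11 in Dicer cKO pools. It was not called (-0.39 ± 0.11, limma adjusted p = 0.0719), and its difference was -0.58 with Dicer cKO pool 12 left out. Slc4a2, an exchanger of chloride and bicarbonate, differed by -0.11 ± 0.10, and Slc4a1, the red cell anion exchanger, by 0.26 ± 0.18.

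No gene was called among the 4 calcium exchangers, the 8 carriers of phosphate, sulfate and carboxylates and the 5 nucleotide sugar carriers. At an unadjusted p under 0.05 in the same limma fit these classes held 0 of 4, 1 of 8 and 1 of 5 genes, beside 3265 of all 15733. Slc24a3, an exchanger of sodium, calcium and potassium, read 12.15, 12.12 and 11.96 in control pools and 12.08 and 12.22 in Dicer cKO pools (0.07 ± 0.08). Slc35a4 of the nucleotide sugar carrier family differed by 0.09 ± 0.09. Slc13a5, the citrate carrier, was detected in all control pools and neither Dicer cKO pool, without a call (limma adjusted p = 0.0883). The filter admitted it through the control pools alone, so no fold is given. Slc12a4, the potassium and chloride cotransporter KCC1, and Slc23a1, a vitamin C carrier, were each detected in 2 control pools and no Dicer cKO pool. Their groups overlapped, so that no direction is given for either. Among vitamin and choline carriers, Slc19a2, the thiamine carrier, read 7.88, 7.94 and 7.93 in control pools and 8.33 and 8.23 in Dicer cKO pools, with no overlap and no call (0.36 ± 0.10, limma adjusted p = 0.0705).

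Some genes that serve carriers without being members were called. Of 15 measured partners and scaffolds, 5 were called lower and 1 higher, beside 3.96% and 2.78% of all genes. Besides Emb, the carbonic anhydrase gene Car12 fell by 0.69 ± 0.16 and the kinase gene Sgk1, which stimulates many carriers, by 0.59 ± 0.15. Nedd4l, a ubiquitin ligase that removes carriers from the surface, fell by 0.39 ± 0.09. The scaffold genes of the sodium and proton exchangers differed in direction, with Slc9a3r1 at 0.45 ± 0.09 and Slc9a3r2 at -0.39 ± 0.09. Of 11 measured genes of the sodium pump and its regulators, 5 were called lower and none higher, beside 3.96% and 2.78% of all genes. Fxyd4, a regulator of the pump, read 11.96, 11.66 and 10.82 in control pools and 6.54 and 8.35 in Dicer cKO pools (-4.04 ± 0.45, limma adjusted p = 0.000824), the largest decrease of all 15733 genes and larger than that of any carrier. Fxyd3, a further regulator, fell by 2.61 ± 0.18, more than every carrier except Slc39a4, and the pump subunit gene Atp1b1 by 0.49 ± 0.10. Of 5 measured organic anion carriers of the SLCO naming, 1 was called, Slco2a1, the prostaglandin carrier, which rose by 0.82 ± 0.11 (limma adjusted p = 0.0024).

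The 2 Dicer cKO pools were not equally far from the controls. Dicer cKO pool 10 lay farther from the control mean than pool 12 for 11 of the 16 carriers called lower and for 6 of the 8 called higher. The median distance was -1.13 log2 units in pool 10 and -0.97 in pool 12 for the carriers called lower, and 0.76 and 0.66 for those called higher. Over all 174 carriers, the median size of the difference between the 2 Dicer cKO pools was 0.154, against 0.138 to 0.187 between control pools and 0.164 to 0.232 between groups. The counts rested in part on pool 10. Without it, 10 carriers were lower and 1 higher, where 304 of all genes were called. Without control pool 9, 15 were lower and 5 higher.

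**Figure D4:**
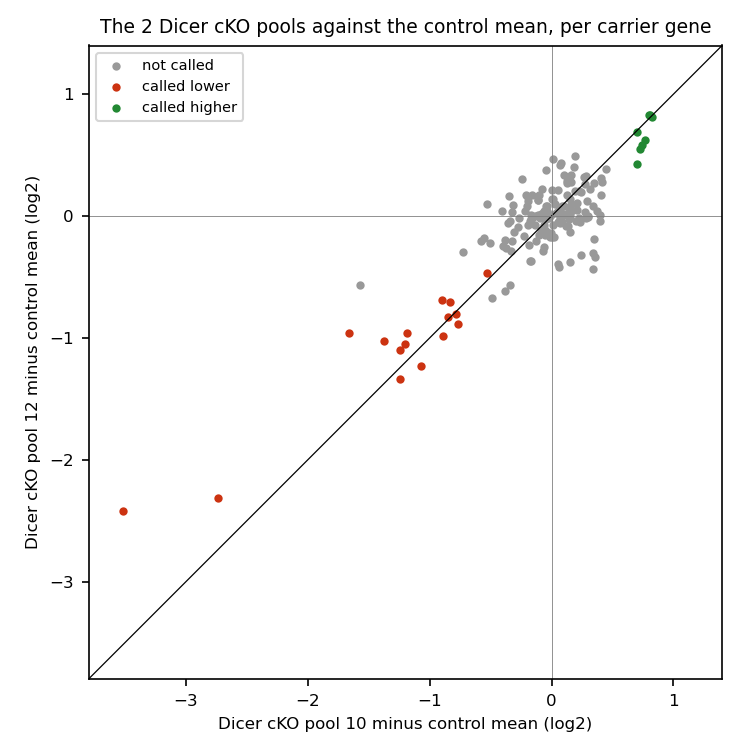
Distance of Dicer cKO pool 10 (horizontal axis) and Dicer cKO pool 12 (vertical axis) from the control mean, in log2 units, for each of the 174 carrier genes; red points were called lower, green points called higher, grey points were not called, and the diagonal marks equal distance. For 11 of the 16 red points pool 10 was lower than pool 12, which puts them above the diagonal.

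Where a called carrier had several probes, they did not always show the same size of change. Of the 24 called genes, 14 had 1 detected probe and 10 had several, and for 6 of these 10 every detected probe was called in the same direction. The exceptions were Slc6a2, Slc7a11, Slc11a2 and Slc27a2. All detected probes of these 4 genes had the sign of the brightest probe. In RefSeq gene order, 35 protein-coding neighbours of the called carriers were measured, and 5 of them (14.3%) were called, each in the direction of its carrier, beside 6.74% of all genes. Slc15a2 lies next to Ildr1, a gene of tight junctions, which read 7.41, 7.04 and 6.72 in control pools and 5.18 and 5.47 in Dicer cKO pools (-1.73 ± 0.20, limma adjusted p = 0.000883). Slc27a2 lies next to Hdc, the gene of the enzyme that makes histamine, which read 12.78, 11.93 and 11.32 in control pools and 9.31 and 10.45 in Dicer cKO pools (-2.13 ± 0.39, limma adjusted p = 0.0102).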

How the data were processed

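The authors deposited, per the file headers, a mean bead intensity for each probe, a detection score from 0 to 1, the SD of the bead intensities and a count of beads. BeadStudio (version not stated) is named in the submitters' processing notes. The deposited intensity values had differing array medians (57.5 to 63.0), as without normalization between arrays, and a background subtraction step is not stated. The labels name a human array, but the gene names match mouse genes and were used. A deposited table of the whole series was not used, since its row identifiers are not among the probe numbers of the array files.

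From the intensities, normexp background correction with an offset of 16, quantile normalization and a log2 transformation were done with limma 3.58.1 in R 4.3.3, with 1 minus the score as detection p. Of 45281 probes, 22845 passed the detection rule. Names were updated with RefSeq (GRCm38.p6): Slc8b1 was listed as SLC24A6, and SLC22A9 kept its array name. Groups were compared with lmFit and eBayes with an intensity trend, 2-sided, without covariates, and values are Dicer cKO minus control, each with its SE from limma. Differences of dim genes are understated because of the offset, and the number of arrays limits the precision. Where no array of a group detected the probe used, "at least" folds use the lowest detected signal there. The fit was tested on simulated data.

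The genes named were all zinc carriers, called carriers that moved 1 log2 unit or more and up to 3 called carriers per class and direction. Carriers whose used probe was detected in 1 group only and the 10 brightest were named too. Slc1a3, Slc38a5 and 14 further carriers that were not called were chosen after their values were seen. The members and lists were chosen with earlier results of these data known. Probes differ in brightness, so levels of different genes do not rank their RNA amounts, and the 10 brightest carriers are those with the brightest probes. Only 2 and 3 pools per group were available, and with 5 pools no exact permutation test can pass 0.05. The array files carry no slide or scan columns, so no batch was tested.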

Additional observations from a re-analysis of the deposited data

How the results depend on the processing

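The carrier counts were recomputed under 13 alternatives: another offset, no background correction, median scaling, 2 other detection filters, the mean of the detected probes, no intensity trend, a robust spread and each pool left out. With a Dicer cKO pool left out, the single remaining pool is assumed to vary like the controls. Of the 24 called carriers, 10 kept their call in all 13 alternatives, and 0 changed direction. The 10 were Slc14a1, Slc15a2, Slc1a1, Slc1a3, Slc1a5, Slc22a18, Slc38a5, Slc40a1, Slc44a4 and Slc6a2. With no detection filter, 4 carriers were called higher in place of 8. With single pools left out, the number called lower ran from 10 to 15, the number called higher from 1 to 8 and the number of all genes called from 304 to 986. Median scaling gave 15 lower and 6 higher and moved the median of all genes from 0.01 to -0.02. No paired analysis was possible because the groups share no pool number.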

Other observations

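A further 42 detected genes carry a current carrier symbol but stand on the array under another name, so that the naming rule left them out. Of these, 3 were called lower and 1 higher, beside 3.96% and 2.78% of all genes, and a difference in share was not tested. Slc44a3, of the same family as Slc44a4 and listed as BC010552, differed by -1.85 ± 0.18 (SE; limma adjusted p = 0.000355). Slc25a48, a mitochondrial carrier, differed by -1.29 ± 0.22 (limma adjusted p = 0.00683), and Slc52a3, a riboflavin carrier, by -0.67 ± 0.12 (limma adjusted p = 0.00722). Slc66a1, an exporter of cationic amino acids from lysosomes listed as PQLC2, was higher by 0.57 ± 0.14 (limma adjusted p = 0.0448).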
